A study of Mus musculus with 74 samples.

Results

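The comparison described here is that of SCNT (somatic cell nuclear transfer) one-cell embryos at 6 h and at 14 h post activation (6 hpa and 14 hpa), made on their H3K9me3 peak lists, per gene, per promoter and per 1-kb window of the 19 autosomes. The members were chosen by label. They are 9 precipitated libraries of the 74 libraries in the series, 5 at 6 hpa and 4 at 14 hpa, each with as many inputs, and they stand behind 2 of the 10 deposited peak lists. The series follows H3K9me3 by ULI-NChIP-seq, a native ChIP-seq for small numbers of cells that cuts uncrosslinked chromatin with micrococcal nuclease, from donor cumulus cells (CCs) through SCNT embryos to the blastocyst, with a list of fertilized zygotes at pronuclear stage 5 (PN5) beside them. The question of this comparison is how the mark changed between the early and the late one-cell embryo, before the first division.

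By the labels the groups differed only in embryo age. In both, a CC nucleus was injected into an enucleated oocyte, donors and oocytes were from B6D2F1 mice, no injected or altered gene is named, and activation was by SrCl2 with cytochalasin B. Polar bodies were removed before collection by the study's methods, and each library was a pool of embryos. The methods name fewer replicates per stage than the labels, so how many libraries entered each list is not known here. Replicates were pooled before peaks were called, so each time has 1 value, no value has a replicate error, and no test across samples was possible. Libraries of the 2 times were also separate preparations, and embryo age and library preparation cannot be told apart.

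H3K9me3 is the trimethylation of lysine 9 of histone H3. It is written by the SUV39H, SETDB1 and related methyltransferases, bound by HP1 proteins, and known as the mark of constitutive heterochromatin, of silenced transposons and of clustered gene families. In a one-cell embryo the chromatin is remodelled by oocyte factors, and DNA is replicated between the early and the late stage. CpG-rich promoters, which drive housekeeping and developmental genes, are usually free of this mark in somatic cells.

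The stretches below are shown because sequence marked at 6 hpa only and at 14 hpa only differed in GC and CpG content. They were set by position, and a stretch need not lie under a peak. The first 3 are the 250 bases before the annotated 5′ end of genes whose promoters were marked at 6 hpa and held no peak base at 14 hpa. The next 2 come from genes whose bodies were covered far more at 14 hpa. The promoter of the second, Prl2c2, was itself among those counted as marked at 6 hpa only, although its covered share was 15.2% at 6 hpa and 26.9% at 14 hpa. The last pair are the central 300 bases of an intergenic region marked at 6 hpa only (near Ezh2) and of one marked at 14 hpa only (near Apba2). All are from the GRCm38.p6 sequence (mm10), 5′ to 3′, with each CG dinucleotide in capitals, and none overlaps an annotated exon.
Scrt1, chr15:76522500-76522749, minus strand: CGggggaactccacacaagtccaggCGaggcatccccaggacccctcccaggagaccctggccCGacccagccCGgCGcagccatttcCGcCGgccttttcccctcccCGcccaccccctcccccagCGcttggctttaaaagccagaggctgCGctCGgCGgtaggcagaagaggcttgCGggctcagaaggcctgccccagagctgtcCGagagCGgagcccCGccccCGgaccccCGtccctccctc
Gata3, chr2:9890035-9890284, minus strand: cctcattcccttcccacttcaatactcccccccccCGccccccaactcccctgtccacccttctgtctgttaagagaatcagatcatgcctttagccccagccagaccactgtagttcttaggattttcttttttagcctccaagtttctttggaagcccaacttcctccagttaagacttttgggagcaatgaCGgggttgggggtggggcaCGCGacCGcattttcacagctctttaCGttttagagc
Suv39h2, chr2:3475032-3475281, minus strand: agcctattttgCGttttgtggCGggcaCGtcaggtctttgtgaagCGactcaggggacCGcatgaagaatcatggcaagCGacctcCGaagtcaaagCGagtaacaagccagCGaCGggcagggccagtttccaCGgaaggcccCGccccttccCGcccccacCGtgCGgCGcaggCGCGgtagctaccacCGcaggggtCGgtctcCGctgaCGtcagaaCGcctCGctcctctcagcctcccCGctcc
Vmn1r213, chr13:23007406-23007655, plus strand: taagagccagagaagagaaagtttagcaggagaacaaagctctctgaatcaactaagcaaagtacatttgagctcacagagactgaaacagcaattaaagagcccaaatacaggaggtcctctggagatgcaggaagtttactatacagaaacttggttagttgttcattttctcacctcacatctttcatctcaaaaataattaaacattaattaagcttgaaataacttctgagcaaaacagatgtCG
Prl2c2, chr13:13005384-13005633, minus strand: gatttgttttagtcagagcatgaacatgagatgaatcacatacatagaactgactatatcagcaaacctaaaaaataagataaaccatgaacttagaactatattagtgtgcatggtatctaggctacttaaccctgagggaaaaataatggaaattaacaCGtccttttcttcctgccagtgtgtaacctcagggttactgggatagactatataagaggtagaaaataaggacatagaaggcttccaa
6 h only, near Ezh2, chr6:47664851-47665150, plus strand: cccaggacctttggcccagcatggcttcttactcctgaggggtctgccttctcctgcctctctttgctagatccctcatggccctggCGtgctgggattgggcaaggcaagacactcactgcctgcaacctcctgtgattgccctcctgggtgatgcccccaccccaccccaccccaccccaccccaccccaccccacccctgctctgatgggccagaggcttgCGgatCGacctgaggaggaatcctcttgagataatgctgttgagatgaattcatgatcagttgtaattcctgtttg
14 h only, near Apba2, chr7:64486851-64487150, plus strand: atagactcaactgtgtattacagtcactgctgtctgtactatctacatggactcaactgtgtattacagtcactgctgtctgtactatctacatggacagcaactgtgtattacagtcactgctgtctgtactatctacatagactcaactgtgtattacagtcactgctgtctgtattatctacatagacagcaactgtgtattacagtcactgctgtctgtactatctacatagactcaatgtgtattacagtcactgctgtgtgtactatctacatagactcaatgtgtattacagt
The Suv39h2 stretch held 25 CG and was 64.8% GC, more CG than 88.4% of the 20807 autosomal protein-coding promoters, and that of Scrt1 held 18 at 71.6% GC. At 6 hpa the Scrt1 and Gata3 promoters were covered to 100%. That of Suv39h2 was covered to 27.05%, and its 19.217-kb body to 2.815%. These are the same number of bases to rounding, so the Suv39h2 peak appears to lie inside the gene and not on the stretch shown. The Gata3 stretch held 6. The Vmn1r213 and Prl2c2 stretches held 1 CG each, at 36.8% and 36.0% GC. The region near Ezh2 held 3 CG in these 300 bases and 37.8 CG per kb over its 8 kb, and the region near Apba2 held none here and 0.8 per kb over its 10 kb. Over all promoters the median stretch of this length held 8 CG (quartiles 3 and 18), and 92.6% held at least 1. The median was 15 for promoters marked at 6 hpa and not at 14 hpa, and 3 for those marked at 14 hpa and not at 6 hpa.

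H3K9me3 peaks covered more of the genome at 14 hpa than at 6 hpa, in fewer and wider peaks. At 6 hpa 157765 autosomal peaks with a median width of 563 bp covered 138 Mb, and at 14 hpa 144004 peaks with a median width of 866 bp covered 207 Mb, 1.49 times as much. The longer list was that of 14 hpa on 19 of 19 autosomes, with ratios from 1.28 on chromosome 5 to 1.79 on chromosome 14. Chromosome 7 was covered most at both times, 11.2% and 16.3%. Mean coverage of an autosome was 5.71% ± 2.01 at 6 hpa and 8.53% ± 2.57 at 14 hpa (SD over 19 autosomes, which are not replicates).

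**Figure D1:**
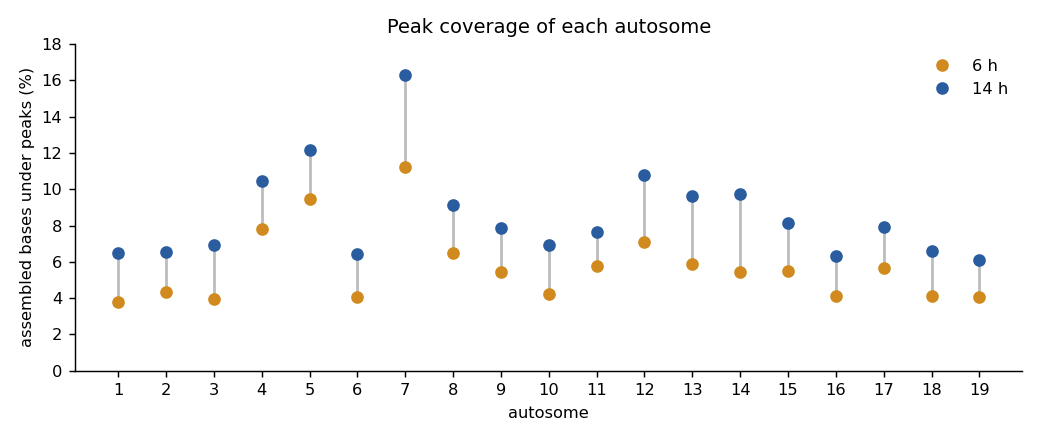
Percent of assembled bases under H3K9me3 peaks (y axis) for each autosome (x axis) at 6 h and 14 h, 1 pooled peak list per time and no error bars. All 19 autosomes lie higher at 14 h, with chromosome 7 the highest at both times (11.2% and 16.3%).

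More of the added length lay in peaks that overlapped a 6 hpa peak than in separate peaks. Of the 14 hpa length outside 6 hpa peaks, 72.7 Mb (60.4%) lay in the former and 47.7 Mb in the latter. Peaks of 10 kb or longer numbered 302 at 6 hpa and 1006 at 14 hpa, and peaks of 5 kb or longer held 10.9% and 23.3% of the covered length. A set of 3150 peaks at 14 hpa, with a median width of 7112.5 bp, each lay over 3 or more 6 hpa peaks. The 6 hpa list had its own small peaks: 42.6% of its peaks overlapped no 14 hpa peak (95% interval 42.4 to 42.9%), with a median width of 359 bp and a median fold enrichment over input of 2.61, against 2.85 for those that did. A list can also grow when its libraries hold less background, which these files do not give, and the part of this in the longer 14 hpa list was not tested. The lowest −log10 q, a mean over each peak that does not give the calling limit, was 1.31 at 6 hpa and 1.52 at 14 hpa.

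Windows of 1 kb, called marked when peaks covered at least 50% of them, differed widely between the 2 times. Of 2395928 windows, 117457 (4.9%) were marked at 14 hpa and not at 6 hpa, 41439 (1.73%) at 6 hpa and not at 14 hpa, and 77186 at both. Thus 34.9% of the 6 hpa windows had no mark at 14 hpa (34.7 to 35.2%) and 60.3% of the 14 hpa windows had none at 6 hpa (60.1 to 60.6%). All intervals given are Wilson 95% intervals, cover counting error only, and take neighbouring windows as independent, which they are not. Of the windows marked at 6 hpa only, 62.6% held no 14 hpa peak base at all, and of those marked at 14 hpa only, 55.6% held no 6 hpa peak base. Where both lists marked a window, the fold enrichment was nearly alike, with medians of 3.03 and 3.10. Trimming the 14 hpa list from its lowest −log10 q to the 6 hpa length left 72704 windows marked at 14 hpa only and 56355 at 6 hpa only. The trimmed list held 67103 peaks of −log10 q 2.83 or above, against 157765 peaks at 6 hpa down to 1.31, so the limits were unequal.

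The 2 directions differed in base composition. Windows marked at 14 hpa only had a median GC of 42.3%, and 30.9% of them were below 40% GC, against a median of 41.7% and 38.2% below 40% GC over all windows, so they were not poorer in GC than the genome. Windows marked at 6 hpa only had a median of 46.7%, with 6.54% below 40% GC and 13.4% at 55% GC or above, against 0.484% of the 14 hpa-only windows and 1.89% of all windows. Below 35% GC, marked windows were 12.1 times as many at 14 hpa (3098 against 256). At 55% GC and above they were 0.487 times as many (4745 against 9750), and 57.2% of the 6 hpa marks there were gone from the 14 hpa list (56.2 to 58.1%), against 28.8% at 45 to 50% GC. Libraries can differ in how they recover GC-rich and AT-rich fragments, and the part of this in the result was not tested.

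**Figure D2:**
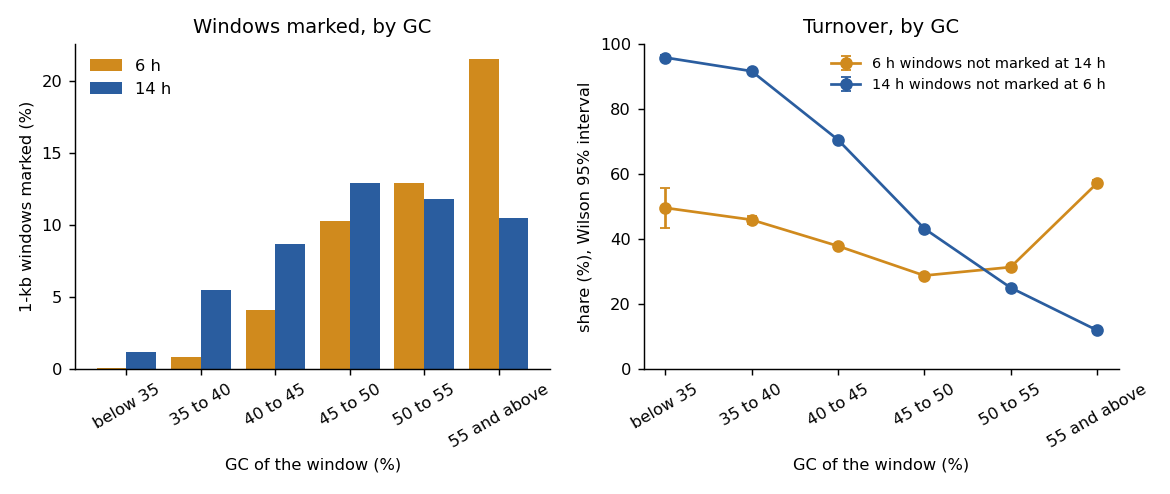
Left, percent of 1-kb autosomal windows marked (y axis) at 6 h and 14 h in bins of window GC (x axis). Right, for the same bins, the percent of 6 h windows not marked at 14 h and of 14 h windows not marked at 6 h, with Wilson 95% intervals (counting error only). Marked windows were fewer at 6 h in each bin below 50% GC and more at 6 h above it, and the share of 14 h windows that were new went from 95.8% below 35% GC to 25.1% at 50 to 55%, and lower above that.

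Within a class of GC, promoters differed from other sequence. Among windows of at least 55% GC, those in promoters (at least 50% within 1 kb of a 5′ end) were marked in 19.5% at 6 hpa and 2.0% at 14 hpa, and 92.3% of the 6 hpa marks had no counterpart at 14 hpa (91.2 to 93.3%). Outside promoters the same GC class went from 22.2% to 13.5%, and 46.1% had none. Windows that the donor CCs also marked were missing at 14 hpa less often. Outside promoters 5.23% of them were missing (4.53 to 6.05%), against 79.0% of those unmarked in CCs (77.7 to 80.2%). In promoters the shares were 49.5%, or 45 of 91 windows (39.4 to 59.5%), and 94.0%. At 45 to 50% GC outside promoters they were 13.8% and 55.1%.

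Windows of the 2 directions also differed in place and in the other lists. Promoters held 8.44% of the windows marked at 6 hpa only and 1.02% of those marked at 14 hpa only, and exons 14.4% and 6.88%. Soft-masked repeat sequence made up 34.6% of the bases of the 6 hpa-only windows, 56.8% of the 14 hpa-only windows and 54.4% of the windows marked at both times, while it was 31.4% of the windows marked at neither. CCs had marked 43.3% of the 14 hpa-only windows, 29.5% of the 6 hpa-only windows and 77.2% of those marked at both. At the 2-cell stage the shares were 26.9%, 15.2% and 67.5%, and in ICM (inner cell mass) 32.6%, 15.6% and 54.2%. In fertilized PN5 zygotes, which by the study's own embryo methods were of another strain, the shares were 22.7%, 8.84% and 39.2%. The study's methods credit its fertilized PN5 data to an earlier publication, while the labels hold PN5 libraries and inputs in this series. Which study made them is not known here, and embryo type, strain and preparation cannot be told apart. Neither CCs nor PN5 zygotes marked 41.8% of the 14 hpa-only and 64.3% of the 6 hpa-only windows.

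Along the chromosomes, the ratio of coverage at 14 hpa to that at 6 hpa was highest where each autosome, cut into 10 equal pieces, begins at the centromere (1.69, from 7.41% to 12.5% of bases) and lowest in the distal piece (1.24, from 8.59% to 10.7%), where median GC was also higher (44.2% against 40.7%).

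The longest runs of windows marked at 6 hpa with no 14 hpa base were GC-rich and CpG-rich. The longest, 9 kb on chromosome 6 from 30173001 to 30182000, lay over the noncoding gene Rncr4, with 56.2% GC and 39.4 CpG per kb, and no base of it was under a peak at any later SCNT stage or in PN5. An 8-kb run on chromosome 15 from 76516001 to 76524000 held all of Scrt1, a neuronal transcriptional repressor. A run of 8 kb from 6475001 to 6483000 on chromosome 17 lay in the noncoding gene Gm26848. The run near Ezh2, on chromosome 6 from 47661001 to 47669000, lay 65659 bp from that gene and was covered to 77.4% again at the 4-cell stage. Altogether 159 of 22252 such runs were 4 kb or longer.

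The longest runs of the reverse kind, of which 537 of 51000 were 4 kb or longer, had at most 41.5% GC, close to the 41.7% median of all windows, and 0.8 to 6.62 CpG per kb. The run near Apba2, 10 kb on chromosome 7 from 64482001 to 64492000 and 9705 bp from the gene, had 100% coverage in CCs, none at 6 hpa, 84.7% at 14 hpa, and 100% again in morula, ICM and trophectoderm. An 8-kb run on chromosome 9 from 35084001 to 35092000, within an intron of the sialyltransferase gene St3gal4, had no CC base and 98.8% at 14 hpa, with 44.3% in PN5. Runs near Mup17, a major urinary protein gene (chromosome 4, 61578001 to 61586000), and near Gm14418 (chromosome 2, 177360001 to 177368000) had been covered to 57.8% and 51.8% in CCs. Reads from repeated sequence such as these can be shared among copies, so their position is uncertain.

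Promoters showed the opposite balance to the genome. A promoter was taken as 1 kb on either side of a protein-coding gene's annotated 5′ end. By the study's overlap rule it was marked when its overlap with a peak made up at least 50% of either. Of 20807 promoters, 6220 (29.9%) were marked at 6 hpa and 1786 (8.58%) at 14 hpa. Those marked at 6 hpa and not at 14 hpa numbered 5028 (24.2%), and those marked at 14 hpa and not at 6 hpa 594 (2.85%). The marks at 6 hpa were short: in the 5028 the median share of promoter bases under peaks was 23.8%, and 4863 of them held no 14 hpa base. The rule can call a wide peak at the promoter's edge unmarked, and 60 of the 5028 had more covered bases at 14 hpa, while 22 of the 594 had fewer. When at least 50% of the promoter had to be covered, the numbers were 1164 and 358.

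The 6 hpa marks sat on CpG-rich promoters. Of 10385 high-CpG promoters, 4265 (41.1%) were marked at 6 hpa and 673 (6.48%) at 14 hpa, and 88.5% of the 6 hpa marks were not found at 14 hpa (87.5 to 89.5%). Among low-CpG promoters 16.5% and 13.2% were marked, and 51.3% of the 6 hpa marks were not found (48.3 to 54.2%). High-CpG promoters made up 75.1% of the promoters marked at 6 hpa only (73.9 to 76.3%) and 31.0% of those marked at 14 hpa only (27.4 to 34.8%). Promoters that CCs had also marked kept the mark more often within each class. Among high-CpG promoters 62.9% of their 6 hpa marks were missing at 14 hpa (57.1 to 68.3%), against 90.3% without a CC mark (89.4 to 91.2%), and among low-CpG promoters 23.7% (20.2 to 27.6%) against a share of 71.3 to 78.3% without one. Of the promoters marked at 6 hpa only, 6.13% were marked at the 2-cell stage and 3.16% in ICM, and of those marked at both times 46.1% and 23.8%.

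In the profile around the 5′ end, the 6 hpa mark formed a narrow summit. At high-CpG genes 26.4% of bases were under a peak in the 200-bp bin centred 300 bp inside the gene, against 5.09% in the bin centred 9900 bp upstream. At 14 hpa the same bins held 3.33% and 5.38%, so that a small local rise over the 1.17% found 700 bp upstream was left. At low-CpG genes the upstream level was higher at 14 hpa (14.5%) than at 6 hpa (9.06%), and CCs had 15.9%.

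**Figure D3:**
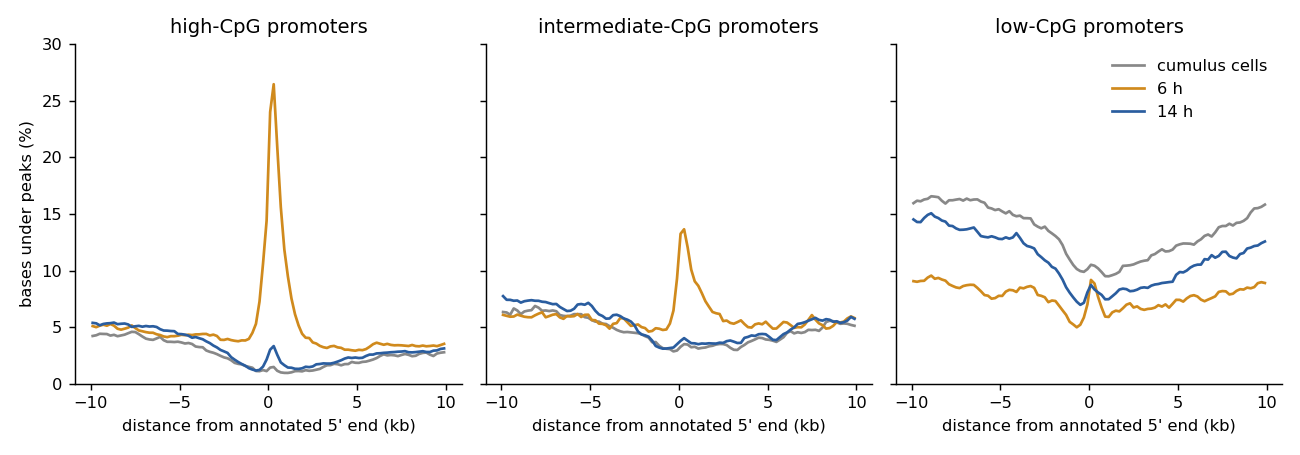
Percent of bases under H3K9me3 peaks (y axis) in 200-bp bins by distance from the annotated 5′ end (x axis, kb, negative upstream) for high-, intermediate- and low-CpG protein-coding genes in CCs, at 6 h and at 14 h. The 6 h line reaches 26.4% just inside high-CpG genes, where the 14 h line is at 3.33% and the CC line at 1.48%, and at low-CpG genes the 14 h line lies above the 6 h line in the flanks.

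Developmental regulators carried the 6 hpa mark most often, and, as over all promoters, most of it was not detected at 14 hpa. The lists below were chosen with results of these data known, so their counts are descriptions, to be read against all protein-coding genes. Over these, 29.9% of promoters were marked at 6 hpa and 8.58% at 14 hpa, 24.2% at 6 hpa only, 19.2% of the 6 hpa marks were found again at 14 hpa, and 2.05% of gene bodies were covered at least 25 points more at 14 hpa and 3.77% at 6 hpa. Of 39 Hox genes, which pattern the body axis, 32 promoters were marked at 6 hpa and 10 at 14 hpa, and 21 gene bodies were covered less at 14 hpa by at least 25 percentage points and none more. Of the 32 Hox promoter marks 28.1% were found again at 14 hpa, above the 19.2% of all promoters. The promoters of Hoxb7, Hoxb9 and Hoxd13 were covered to 100% at 6 hpa and to 0% at 14 hpa, and that of Hoxc11 to 49.2% and 0%. Hoxa11 had 90.3% and 75.1%, and Hoxd9 100% and 50.5%. With the 14 hpa list trimmed, 2 Hox promoters were marked there, and 6.25% of the 6 hpa marks were found again, against 8.81% of all promoters. Of 144 other developmental transcription factor genes (Pax, Sox, Fox, Gata, Tbx, Nkx and like families), 116 promoters were marked at 6 hpa and 23 at 14 hpa. Of these 116 marks 18.1% were found again, close to the share of all promoters, and 3.45% with the list trimmed. Foxb2, Foxd2 and Foxa3 each went from 100% of the promoter to 0%. Neurod1, a neurogenic factor, went the other way in its body, from 22.7% to 38.6%. Foxd3 (100% and 72.5% of the promoter) and Sox2 (97.3% and 44.4%), both regulators of early pluripotent cells, were among the 21 marked at both times, and these 2, like Hoxa11 and Hoxd9, were picked out after their values were seen.

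Secreted signals and lineage regulators behaved likewise, with 10.3% and 12.5% of their 6 hpa promoter marks found again at 14 hpa. Among 62 Wnt, Fgf, Bmp, Gdf and hedgehog genes 39 promoters were marked at 6 hpa and 4 at 14 hpa, namely Bmp7, Fgf20, Fgf3 and Wnt11, and their promoter coverage was lower at 14 hpa too (Fgf3 99.2% and 8.6%). Gdf6, Gdf7 and Wnt5a went from 100% of the promoter to 0%, while the promoter of Wnt8b had no base at 6 hpa and 44.3% at 14 hpa. Of 27 pluripotency and trophectoderm regulators 16 promoters were marked at 6 hpa, and at 14 hpa only Klf2 and Sox2. The promoters of Gata3 and Hand1, trophoblast factors, and of Prdm14, a germline and pluripotency factor, were covered to 100% and then to 0%. Of the other regulators, Eomes (63.8%) and Klf4 (68.3%) also went to 0%, Cdx2 had 49.0% at 6 hpa and none at 14 hpa, and Nanog and Pou5f1 had no promoter base at either time. These last 5 were named after their values were seen.

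At 6 hpa the histone, ribosomal protein, heterochromatin factor and cumulus cell lists ran from 22.2% to 34.5%, around the 29.9% of all promoters. The high-CpG class holds 64 of the 67 histone, 68 of the 75 ribosomal protein and 21 of the 29 heterochromatin factor genes. Taken whole, that class was marked in 41.1% at 6 hpa, more than any of these lists. Of 67 replication-dependent histone genes 21 promoters (31.3%) were marked at 6 hpa and 2 at 14 hpa, and those 2, Hist1h2aa and Hist1h2ba, encode testis variants and were covered to 61.0% each at 14 hpa. Hist3h2ba went from 100% of its body to 0%. Of 75 ribosomal protein genes 18 (24.0%) and then 4 promoters were marked, and the 4 were Rpl10l, Rpl39l, Rpl8 and Rps29. Rps21 had 43.2% of its promoter covered at 6 hpa and none at 14 hpa. Of 29 genes for H3K9 methylation and heterochromatin factors 10 (34.5%) and then 1 were marked, the one being Cbx3, an HP1 gene (15.1% and 11.6% of the promoter). Fam208a (42.9%), Kdm3b (41.2%) and Ehmt2 (32.3%) had no promoter base left at 14 hpa. Of 27 cumulus and granulosa cell genes, genes of the donor cell type, of which 8 have high-CpG promoters, 6 promoters (22.2%) were marked at 6 hpa and 1 at 14 hpa. That one, Lhcgr, the luteinizing hormone receptor gene, was covered to 40.6% and then 94.8%, while Inhbb, which encodes an inhibin subunit, went from 96.4% to 0%.

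**Figure D4:**
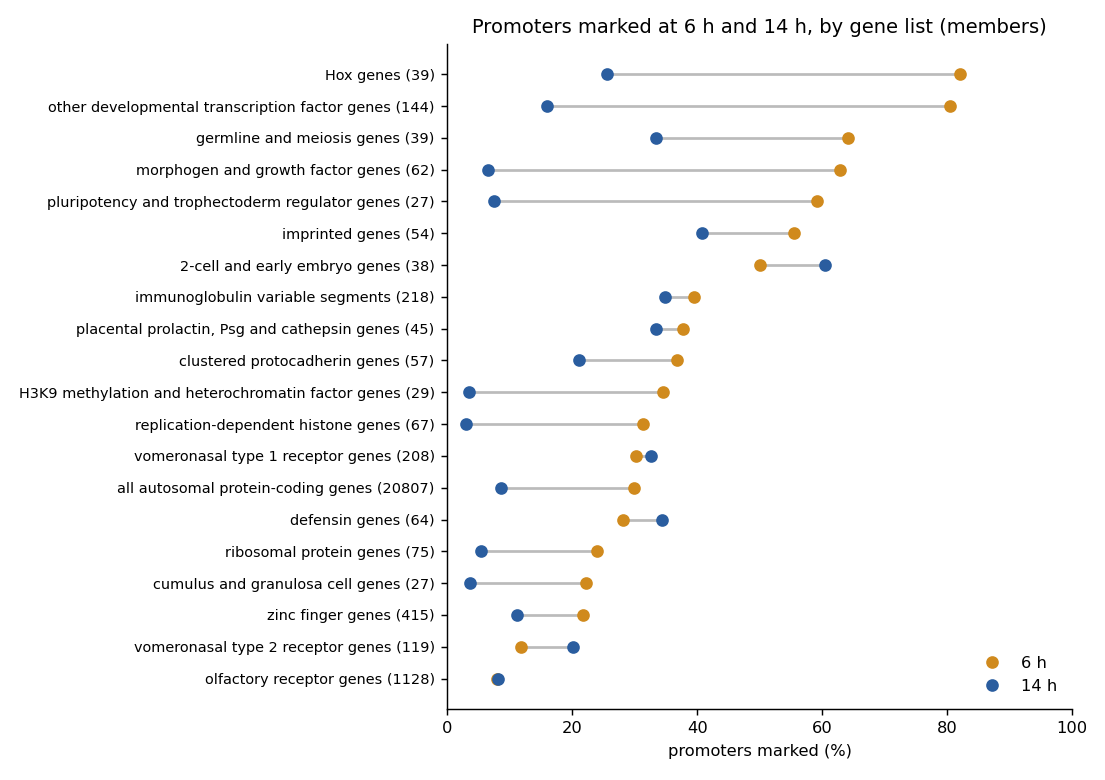
Percent of promoters marked (x axis) at 6 h and 14 h for each gene list (y axis, number of members in brackets), 1 pooled list per time and no error bars. Hox and developmental regulator lists go from above 80% to 25.6% and 16.0%, and all protein-coding genes from 29.9% to 8.58%. The receptor, defensin and early embryo lists change little or are higher at 14 h. Each of them is lower at 14 h when the 14 h list is trimmed to the 6 h length. With −log10 q of at least 2 in both lists, each is equal or higher at 14 h.

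Imprinted and germline promoters marked at 6 hpa were found again at 14 hpa in 60% and 48% of cases, against 19.2% of all promoters, and in 53.3% and 24% against 8.81% with the 14 hpa list trimmed. Other lists had shares at least as high: early embryo genes 89.5%, placental genes 82.4%, defensins 77.8%, immunoglobulin segments 72.1% and vomeronasal type 1 receptors 60.3%. Trimmed, these were 47.4%, 64.7%, 33.3%, 41.9% and 28.6%. Over all promoters that CCs also marked, 39.0% of the 6 hpa marks were missing at 14 hpa. CCs marked 19 of the 54 imprinted promoters and 12 of the 39 germline promoters. Of 54 imprinted genes 30 promoters were marked at 6 hpa and 22 at 14 hpa, 18 of them at both. Peg3, Peg10 and Sgce, paternally expressed genes with a methylated maternal copy, had 84.2%, 85.5% and 80.6% of the promoter covered at 6 hpa and 100% at 14 hpa (Peg10 and Sgce start side by side, and all were named after their values were seen). Ascl2, Phlda2 and Dlk1 had 100%, 99.7% and 80.7% at 6 hpa and none at 14 hpa, and H19, a maternally expressed noncoding RNA, had none at 6 hpa and 47.6% at 14 hpa. Of 39 germline and meiosis genes 25 and then 13 were marked (6 at 14 hpa with the list trimmed), 12 at both times. Mael, of the piRNA pathway, had 25.1% and then 60.5%, whereas Stag3, a meiotic cohesin gene, had 80.9% and then 0%.

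The promoters marked at 6 hpa without any 14 hpa base whose peak had the highest fold enrichment belonged to Dppa3 (4.81), a maternal factor of the zygote, Kmt2b (4.79), an H3K4 methyltransferase, Ankrd40 (4.62), Ppp1r1a (4.57), Zcchc8 (4.50), 2610042L04Rik (4.50), Gmeb2 (4.49) and Zdhhc8 (4.37). Of these 8, only Dppa3 was not high-CpG, and 6 of the 8 had no CC or 2-cell promoter base, the exceptions being Dppa3 and Ankrd40. Their promoter coverage at 6 hpa ran from 8.95% (Zcchc8) to 55.5% (Ppp1r1a), with 9.3% for Dppa3 and 9.6% for Gmeb2. The Dppa3 body still had 7.0% covered at 14 hpa. The reverse 8 were Ciao2a (5.14), Gbgt1 (4.55), Bglap3 (4.40), Sh2b1 (4.09), Gm15446 (4.08), Car7 (4.05), Hbb-bt (4.05), a beta-globin gene, and Gm10338 (3.99). In 7 of these 8 the promoter also held PN5 bases, Gm10338 being the exception. Coverage of the 8 promoters at 14 hpa ran from 12.55% (Ciao2a) to 93.15% (Bglap3). Hbb-bt had 72.4% of its body covered at 14 hpa, none at 6 hpa and 96.3% in PN5.

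Over gene bodies, the number of genes with at least 25 points more coverage at 14 hpa was 427 of 20807 (2.05%), and with at least 25 points more at 6 hpa 784 (3.77%). The 2 sets were unlike. The 784 were short (median 3.27 kb), GC-rich (55.3%) and went from a median of 48.4% covered to 0%, with a CC median of 0%. Genes called in neither direction had medians of 19.3 kb and 45.3% GC. A change of 25 points takes more bases in a longer gene, so short length goes with the threshold in both sets. Under 5 kb 14.2% were called lower at 14 hpa and 5.24% higher, and at 100 to 300 kb 0% and 0.164%. The 427 had a median length of 5.28 kb and GC of 42.8%, 80.8% had low-CpG promoters, and they went from a median of 14.1% to 61.6%, close to the 62.9% of CCs. In long genes the order was that of the whole lists, of which the 14 hpa list was 1.49 times as long. Of 541 genes over 300 kb, 90.9% had more coverage at 14 hpa by any amount and 9.06% more at 6 hpa, though none by 25 points. Their mean coverage was 4.34% at 6 hpa and 6.29% at 14 hpa, and values with the 14 hpa list trimmed are not given here. Of the 3776 genes under 5 kb the shares were 11.9% and 32.0%, and the rest had equal coverage. Unprocessed pseudogenes, many of them copies in gene families, had mean coverages of 18.6% and 25.7%, and 285 of 1789 were covered more at 14 hpa against 94 less.

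Among genes of 5 kb or longer, the 10 largest falls were mostly in genes of the nervous system and of embryonic patterning, with CC coverage of 17.0% at most. Scrt1 (chromosome 15, 76516203 to 76522499) went from 99.4% to 0%. Kiss1r, the kisspeptin receptor gene, went from 83.4% to 0%, and Icam5, a neuronal adhesion gene, from 87.9% to 5.3%. The homeobox genes Dbx1, Hmx1, Otx1 and Tlx1 had 77.6%, 90.5%, 75.2% and 73.8% at 6 hpa and 0%, 14.8%, 1.98% and 4.55% at 14 hpa. Tbx1, a T-box factor gene of pharyngeal development, went from 76.5% to 0%, Islr2 from 77.3% to 0%, and Shh, which encodes the Sonic hedgehog morphogen (chromosome 5, 28456815 to 28467256), from 72.8% to 0%. At the 2-cell stage the 10 were covered to 17.9% at most.

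The 10 largest rises were in members of multigene families. Among them 8 were Gm genes on chromosome 14, a chromosome that held 88 of the 427 genes covered more at 14 hpa. Those 88 were 9.76% of its 902 protein-coding genes, against 2.05% of all autosomal ones. Gm8127 and Gm8094 went from 0% to 73.8% and 72.2%, with no base in CCs and 72.4% and 38.6% at the 2-cell stage. Gm3194 went from 15.5% to 86.0% and had 87.2% in CCs. Vmn1r213, a vomeronasal receptor gene (chromosome 13, 23007656 to 23014482), had 13.5% at 6 hpa and 79.7% at 14 hpa, beside 83.6% in CCs and 12.6% in 2-cell embryos. Prl2c2, a placental prolactin-like hormone gene (chromosome 13, 12996125 to 13005383), had 5.96% and 68.9%, beside 92.2% and 6.33%. The last pair were thus covered in the donor cell and at 14 hpa and little at 6 hpa or the 2-cell stage. Gene copies of this kind are near-identical, so reads could be split or placed on the wrong copy. With the 14 hpa list trimmed, 9 of the 10 rises still passed 25 points, all but Gm8229, and so did the 10 falls.

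**Figure D5:**
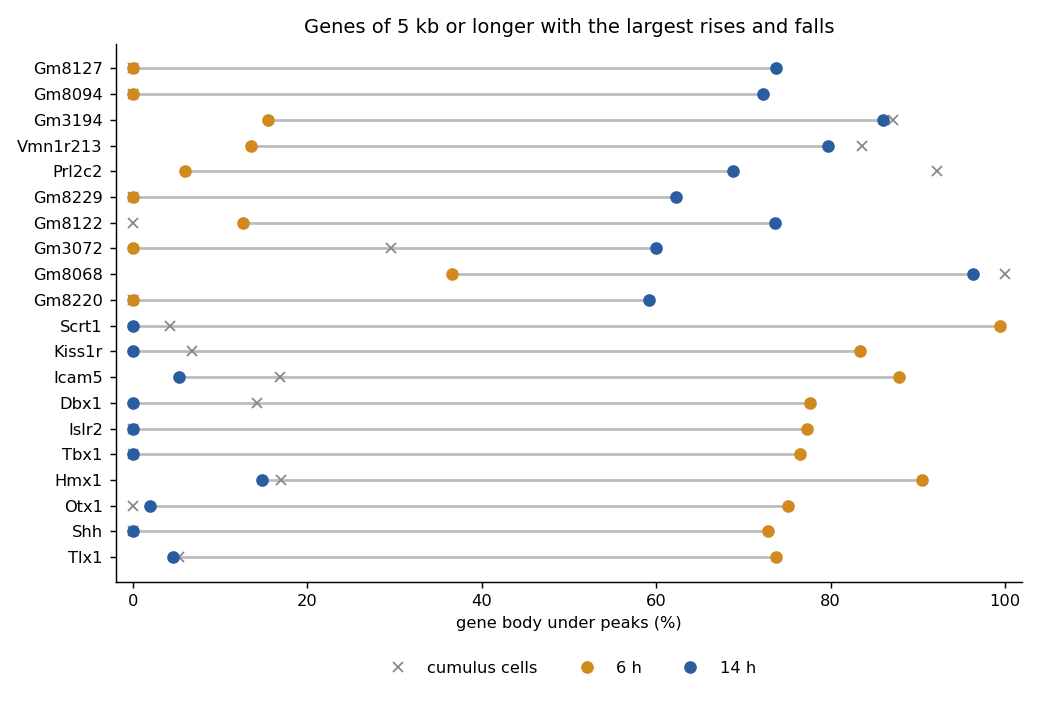
Percent of the gene body under H3K9me3 peaks (x axis) in CCs (crosses), at 6 h and at 14 h for the 20 genes with the largest rises (top 10) and falls (bottom 10), 1 pooled list per time and no error bars. Patterning genes such as Scrt1 (99.4% and 0%) lie far right at 6 h and at or near 0 at 14 h, and for Gm3194, Vmn1r213, Prl2c2 and Gm8068 the CC cross lies at or beyond the 14 h point.

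Clustered gene families differed from the developmental lists in direction, but this depended on the length of the 14 hpa list. Their counts of bodies stand against 2.05% of all genes covered more at 14 hpa and 3.77% more at 6 hpa, or 0.827% and 4.86% with the 14 hpa list trimmed. Of 1128 olfactory receptor genes 48 bodies were covered more at 14 hpa and 14 more at 6 hpa, and 90 and 92 promoters were marked. Among 208 vomeronasal type 1 receptor genes the bodies were 26 and 15 and the promoters 63 and 68, and among 119 type 2 genes 9 and 0 and 14 and 24. In these 3 families median CC coverage was 0%, 55.6% and 40.8%, and at 14 hpa it was 0%, 13.7% and 16.6%. With the 14 hpa list trimmed to the 6 hpa length the bodies became 8 and 26 for olfactory receptors, 8 and 26 for type 1 and 2 and 0 for type 2 vomeronasal receptors, and the marked promoters became 90 and 35, 63 and 20, and 14 and 5. With −log10 q of at least 2 in both lists the bodies were 39 and 7, 28 and 10, and 8 and 0. The marked promoters were then 43 and 66, 42 and 55, and 5 and 14. Single examples were Olfr1453 (0% and 91.0% of the body), Olfr402 (10.4% and 64.6%), Vmn1r56 (20.7% and 100%) and Vmn2r111 (19.2% and 52.4%). With the list trimmed the difference was 0 points for Olfr1453, -10.4 for Olfr402, -2.81 for Vmn2r111 and 79.3 for Vmn1r56. Olfr340 (80.7% and 0%) and Vmn1r95 (77.7% and 0%) went the other way.

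Of 64 defensin genes, which encode antimicrobial peptides, 11 bodies were covered more at 14 hpa and 2 more at 6 hpa, and 3 and 6 with the list trimmed. Their marked promoters were 18 and 22, 18 and 8 with the list trimmed, and 11 and 17 with −log10 q of at least 2 in both lists. Defb4 went from 0% to 72.3% and Defa26 from 63.5% to 0%. Of 45 placental prolactin, Psg and cathepsin genes 4 were covered more at 14 hpa and none more at 6 hpa, and 1 and 5 with the list trimmed. Psg29 had 56.7% and 74.0% of its body covered, a difference of 17.4 points that became -38.2 with the list trimmed. Of 415 zinc finger genes, many of them KRAB-type repressors, 20 bodies were covered more at 14 hpa and 7 more at 6 hpa (9 and 11 trimmed), while marked promoters went from 90 to 46. Zfp936 went from 39.3% to 79.8% in its body and from 0% to 55.5% in its promoter, with 97.8% of the body covered in CCs. Zfp654 went from 63.1% of its promoter to 0%. Clustered protocadherins, neuronal adhesion genes, had 5 bodies covered more at 14 hpa and 3 more at 6 hpa of 57 (4 and 10 trimmed), with Pcdhgb6 from 44.9% to 100% of the promoter and Pcdhb10 from 46.8% to 0% of the body. Of 218 immunoglobulin variable segments 21 were covered more at 14 hpa and 33 more at 6 hpa (8 and 48 trimmed), such as Ighv1-63 (0% and 100%) and Ighv1-61 (100% and 0%).

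Genes of the 2-cell and early embryo, which lie in repeated arrays, were covered more at 14 hpa in 10 of 38 bodies and more at 6 hpa in 1, and with the list trimmed in 5 and 7. Their promoters were marked in 19 and 23 cases, in 19 and 10 with the list trimmed, and in CCs in 27. With −log10 q of at least 2 in both lists they were marked in 16 and 16. Obox5, an oocyte and early embryo homeobox gene, had 34.1% of its promoter covered at 6 hpa and 98.2% at 14 hpa, and Tdpoz4 had 43.6% and 99.5%, whereas Obox6 had 95.8% and 51.5%. The Usp17la promoter, at 31.9% and 98.8%, had no 14 hpa base once the list was trimmed. Members of the Zscan4 cluster moved both ways, with Zscan4b from 0% to 49.8% of its body and Zscan4d from 28.6% to 14.8%. Zscan4b was named after its value was seen, and its value with the list trimmed is not given here.

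Among the other loci that the study discusses, the promoters of Suv39h2 and Max were counted as marked at 6 hpa only. Both are high-CpG, a class in which 3776 of 10385 promoters were so counted. The promoter of Suv39h2, which encodes an H3K9 methyltransferase (chromosome 2, 3455815 to 3475031), had 27.1% of its bases under a peak at 6 hpa and none in CCs, PN5 or the 14 hpa and 2-cell lists. The Max promoter had 11.5% at 6 hpa and none at 14 hpa. Mycn had 10.6% of its body and then none. Kdm4b, an H3K9 demethylase gene, had 3.89% and 5.48% of its body and no promoter base, Wwp2 had 1.29% and 1.41%, and Mcrs1 had no base at either time. A gene without a peak held no enrichment detectable above the threshold in these pools of embryos, which does not show the mark to be missing.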

How the data were processed

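The authors trimmed reads with cutadapt 1.16, aligned them to mm10 with BWA mem, merged libraries with SAMtools, and used Picard to remove duplicates and draw the same number of reads per group. They called broad peaks over input with MACS2. Other versions and the MACS2 threshold are not given in the sources used here, and neither are read counts per library. The deposited lists give for each peak a fold enrichment over input (a ratio) and a −log10 q value, both computed by the authors' peak caller and averaged over the peak. The −log10 q served to trim lists, and fold to describe peaks.

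Covered bases were counted on GRCm38.p6 with GENCODE M21 genes, with numpy 2.4.6 and pandas 2.3.3 under Python 3.11.15, and intervals were made with scipy 1.17.1. Windows had at least 50% assembled bases. A promoter was high-CpG when some 500-bp stretch reached 55% GC together with an observed-to-expected CpG ratio of 0.75, low-CpG when the ratio stayed at or under 0.48 throughout, and intermediate in other cases. The counting was tested on simulated peaks. Sequences were read from the RefSeq GRCm38.p6 assembly. Members, lists and thresholds were chosen with earlier results of these data known. Genes named were the 10 largest rises and 10 largest falls in body coverage (genes of at least 5 kb), the 8 promoters of highest fold in each direction, up to 4 members of each list with the largest change, the 4 longest runs of windows in each direction, and 8 genes that the study discusses. Others are said to have been named after their values were seen. Alternatives were the 14 hpa list trimmed to the 6 hpa length, −log10 q of at least 2 or fold of at least 3 in both lists, peaks within 1 kb joined, and other limits for windows, promoters and genes. Counts per gene list under 3 of these were added after seeing the data. X, Y and mitochondrial peaks were left out of the comparison.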

Additional observations from a re-analysis of the deposited data

Results flagged for a closer look

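Peaks outside the autosomal comparison were flagged because data left out of it held more than the 3 peaks that a count of 0 allows. Chromosome X had 20798 peaks at 6 hpa and 21341 at 14 hpa, which covered 18066 kb and 29323 kb. Chromosome Y had 302 peaks at 6 hpa and 438 at 14 hpa, covering 255 kb and 479 kb. Donor cells and oocytes came from females by the study's methods, and which sequence gave the Y peaks was not tested.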

How the results depend on the processing

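No paired analysis was possible because the replicates of each time had been merged by the authors ahead of peak calling, which also meant that leaving out single replicates could not be tried. With the 14 hpa list trimmed to the 6 hpa length, windows marked at 14 hpa only became 72704, promoters 221 and genes 172, the high-CpG share of promoters marked at 6 hpa only 72.36%, and the low-GC share of windows marked at 14 hpa only 29.5%. With −log10 q of at least 2, promoters marked at 6 hpa only were 3207 and the shares 77.14% and 28.77%. With fold of at least 3, windows were 66347 (14 hpa only) and 20681 (6 hpa only), promoters 277 and 1417, genes 204 and 357, and the low-GC share 22.5%. Joining peaks moved only the low-GC share, to 35.34%. Windows marked by any base gave 106156 at 6 hpa only and a low-GC share of 45.46%, and at 75% covered 23965 and 25.44%. Promoters covered to at least 50% were 358 and 1164. Genes numbered 1235 and 1828 at 10 points and 111 and 282 at 50 points. In each of these settings, windows marked at 14 hpa only outnumbered those marked at 6 hpa only, and for promoters and genes the order was the reverse. Of 236 coverage differences of 118 named genes, trimming turned the sign of 9. Of those that had been at least 25 points, it turned 4, the promoters of Usp17la (-31.9 points, 67 as deposited) and Defa25 (-8.2, 43.8) and the bodies of Olfr402 (-10.4, 54.1) and Vmn2r111 (-2.81, 33.2). The largest of the other 5 were the bodies of 2610042L04Rik (18.5 to -19.4) and Psg29 (17.4 to -38.2). Joining turned 3, none of them of 25 points.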
